A study of Mus musculus with 12 samples.

Results

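The genes described here are the H2 genes, the major histocompatibility complex of the mouse, in the trigeminal ganglia of mice grouped by their response to PACAP, the neuropeptide pituitary adenylate cyclase-activating polypeptide. A gene was a member if its mouse symbol begins with H2-, and 45 of the 51341 genes in the deposited table were members. Of these, 2 are classical class I genes, 29 are nonclassical class I genes, 5 are classical class II genes, 5 are nonclassical class II genes and 4 are none of these: H2-Ke6, which is named for its position, and the pseudogenes H2-K2, H2-Pa and H2-Pb. H2-K2 shares stretches of at least 90% identity with 12 other members, H2-K1 and H2-D1 among them. All 45 lie on chromosome 17 between chr17:33974659-37483552 (GRCm38), and the annotation lists 11 of them as pseudogenes or polymorphic pseudogenes.

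Trigeminal ganglia were taken from 12 mice of the outbred CD1 stock. The responder group held 6 mice that were responsive to PACAP, and the non-responder group held 6 that were not, with 3 females and 3 males in each. Every mouse gave its own library, made from frozen ganglia by poly A selection and read in pairs of 150 bases. The sources used here do not give the age of the mice, how a response was scored or the time between PACAP and dissection.

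Class I molecules are carried by nearly all nucleated cells, pair with beta 2 microglobulin and show peptides from inside the cell to CD8 T cells and natural killer cells. Class II molecules are pairs of an alpha and a beta chain, are made mainly by macrophages, dendritic cells and B cells, and show peptides from outside the cell to CD4 T cells. H2-K and H2-D are among the most variable genes of the mouse, so animals of an outbred stock can carry different alleles and even different numbers of these genes.

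Values are FPKM, fragments counted per unit of transcript length and library size, so that levels can be set beside each other between genes. Totals per mouse ranged from 286388 to 358590 FPKM, and between 12648 and 13994 genes reached 1 FPKM. Some libraries stood apart in markers of other cells. The summed neutrophil markers reached 4142 FPKM in non-responder 4, where the summed B cell markers (157 FPKM) and macrophage markers (221 FPKM) were also highest, and the summed pituitary hormone genes reached 77394 FPKM in responder 1. In bulk tissue, fewer cells of a type and less RNA per cell cannot be told apart.

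The H2 genes together made up a small share of the expression of the ganglion, and most of it came from few genes. Summed over the 45 members, the lowest, median and highest values were 164, 251 and 419 FPKM in responders, against 151, 206 and 351 FPKM in non-responders. Over the 12 mice this was 0.05% to 0.142% of all FPKM. H2-D1 alone held 9.49% to 57.4% of the members' sum, with a median of 46.0% in responders and 34.3% in non-responders. Of the 45 members, 20 reached 1 FPKM in at least 3 mice and entered the test, and 25 did not. By the median over 12 mice the order of levels was H2-D1 (90.1 FPKM), H2-Eb1 (27.1 FPKM), H2-Ab1 (22.8 FPKM) and H2-DMa (14.6 FPKM), and then H2-T22, H2-T23, H2-Q4, H2-Ke6, H2-K1, H2-DMb1 and H2-M3 between 6.97 and 3.68 FPKM. H2-DMb2, H2-T10, H2-T24, H2-T-ps, H2-Q1, H2-Q6 and H2-K2 had medians between 2.07 and 1.07 FPKM, and H2-Ea-ps (0.613 FPKM) and H2-Q7 (0.574 FPKM) came last. The ranges of neighbours in this order overlapped, and the ranges of H2-D1 (14.3 to 227.4 FPKM) and H2-Eb1 (14.4 to 65.4 FPKM) did so as well.

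**Figure D1:**
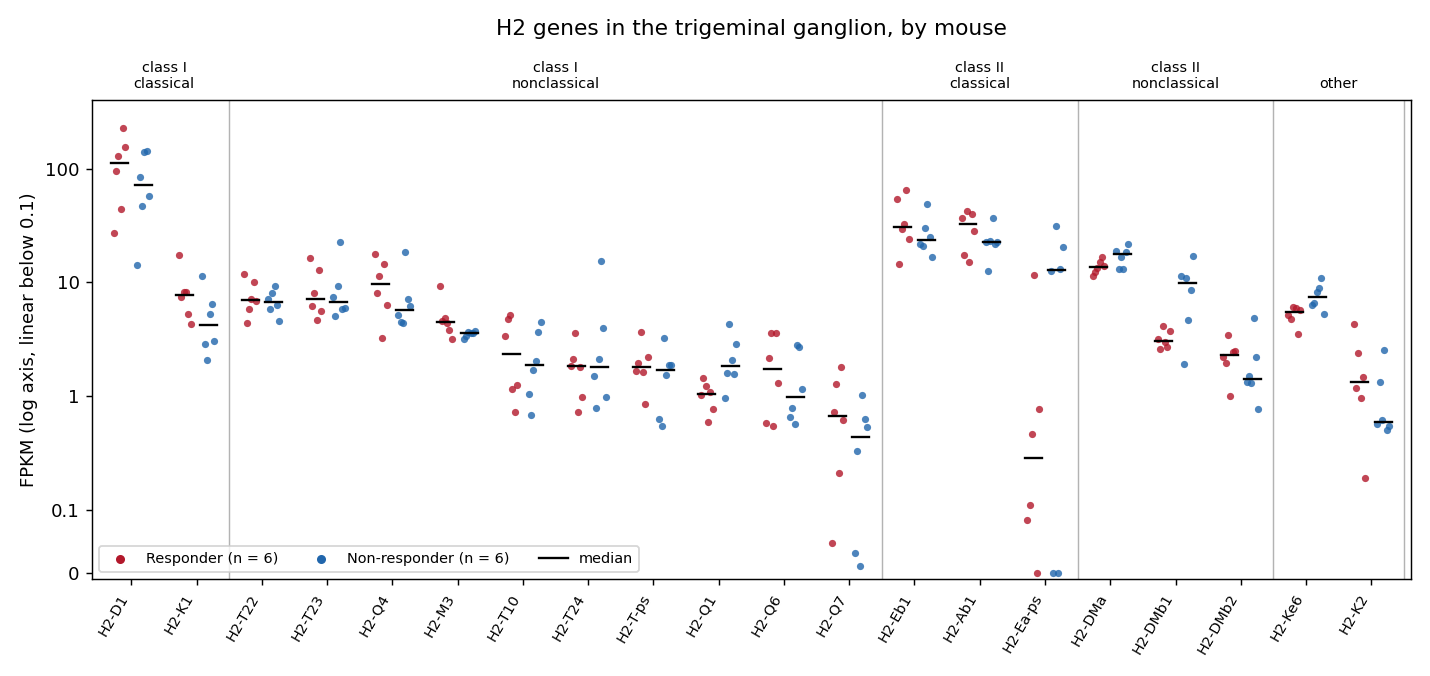
FPKM of the 20 H2 genes that entered the test, on a log axis that is linear below 0.1, with 1 point per mouse (responders left, non-responders right of each gene) and the group median as a bar. The groups overlapped for all 20 genes, and H2-Ea-ps ran from 0 to 31.3 FPKM.

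The start regions of some class I genes hold 2 shared motifs. RefSeq promoter windows (GRCm38.p6, 250 bases before each start) were found for 32 of the 45 members, as 35 windows. GGGATTCCC, the core of the class I enhancer site that NF-kB binds, and the interferon response motif TTTCACTTC were searched on both strands. The motifs are in capitals in the stretches below. These are shown because H2-D1 and H2-K1 both carry the 2 motifs although their levels differed widely in most mice. The stretch lies at chr17:35262923-35262952 (+) for H2-D1, chr17:34000429-34000458 (-) for H2-K1, chr17:35424677-35424706 (+) for H2-Q6, chr17:35439021-35439050 (+) for H2-Q7, chr17:35379443-35379472 (+) for H2-Q4, chr17:37270112-37270141 (+) for H2-M3 and chr17:35469913-35469942 (+) for H2-Q10, which did not enter the test.
H2-D1: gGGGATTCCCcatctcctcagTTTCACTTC
H2-K1: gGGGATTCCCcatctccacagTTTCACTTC
H2-Q6: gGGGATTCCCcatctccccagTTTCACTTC
H2-Q7: tgGGGATTCCCatctccccagTTTCACTTC
H2-Q4: ggggatttcccatctccccagTTTCACTTC
H2-M3: attcccccatttcctctgaggTTTCACTTC
H2-Q10: gaggactccccatctccccagTTTCACTTC
The H2-D1 stretch falls inside an exon that GENCODE M21 gives to H2-D1 itself.

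GGGATTCCC was present in 99 of 32817 promoter windows (0.302%), of which 5 belonged to members: H2-D1, H2-K1 (in 2 windows), H2-Q6 and H2-Q7. TTTCACTTC was present in 132 windows (0.402%), of which 8 belonged to members: H2-D1, H2-K1, H2-M3, H2-Q4, H2-Q6, H2-Q7 and H2-Q10. Only 5 windows of all 32817 held both motifs (0.0152%), and these were the windows of H2-D1, H2-K1, H2-Q6 and H2-Q7. The 2 motifs did not overlap each other. Of the 9 class I members in the test that had a window, 6 held at least 1 of the motifs and 3 (H2-T22, H2-T23 and H2-T-ps) held neither, so the motifs are not common to all of them. A match describes letters and not a bound site, and other spellings of the motifs were not searched.

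The classical class I genes differed widely in level, with H2-D1 above H2-K1 in every mouse. H2-D1 (ENSMUSG00000073411, chr17:35262730-35267499) had a lowest, median and highest value of 27.2, 111.5 and 227.4 FPKM in responders, against 14.3, 71.3 and 143.2 FPKM in non-responders. H2-K1 (ENSMUSG00000061232, chr17:33996017-34000347) had 4.27, 7.78 and 17.4 FPKM in responders, against 2.08, 4.17 and 11.3 FPKM in non-responders. Both genes overlapped between the groups, and the medians of both were higher in responders. The differences were within the spread between mice: the log2 fold change, responder over non-responder, was 0.48 ± 0.62 (SE, adjusted p = 0.864 in limma) for H2-D1 and 0.66 ± 0.37 (SE, adjusted p = 0.726) for H2-K1. The value of H2-D1 depended on single mice: it was 0.089 without non-responder 1, 0.12 without responder 5 and 0.93 without responder 1.

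The ratio of H2-D1 to H2-K1 ran from 1.57 in responder 1 to 43.2 in responder 5, with a responder median of 14.3, against 1.27 in non-responder 1 to 29.6 in non-responder 2, with a non-responder median of 22.5. The 2 mice with the most H2-K1, responder 1 (17.4 FPKM) and non-responder 1 (11.3 FPKM), were those with the least H2-D1, at 27.2 and 14.3 FPKM. Over all 12 mice the 2 genes had a Pearson r of -0.39 and a Spearman rho of -0.36, which did not pass the permutation test (adjusted p = 0.282 and 0.330 over 8 relations). Within responders r was -0.87 (n = 6, exact permutation p = 0.0208, adjusted p = 0.0556), and within non-responders it was -0.34 (n = 6, exact permutation p = 0.524, adjusted p = 0.698). Without the 2 mice farthest from the median of H2-K1, r was -0.42 (permutation p = 0.228). The transcripts of the 2 genes match at 90.4% identity over 1403 bases, so fragments could have been divided between them. How fragments of alleles other than those of the reference genome, which comes from C57BL/6J, were placed was not tested.

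**Figure D2:**
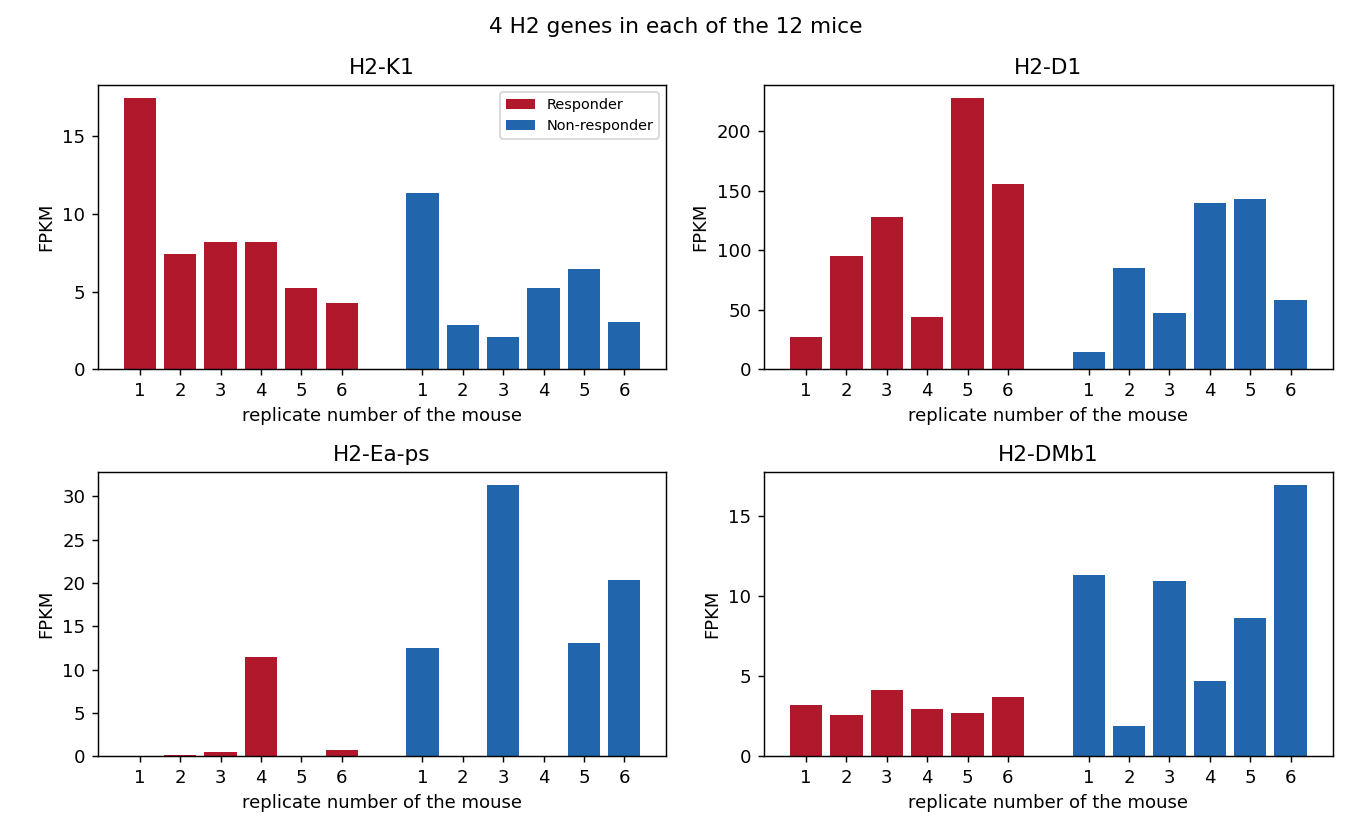
FPKM of H2-K1, H2-D1, H2-Ea-ps and H2-DMb1 in each mouse, with responders 1 to 6 left of non-responders 1 to 6. Responder 1 and non-responder 1 have the highest H2-K1 and the lowest H2-D1, and the 4 non-responders with H2-Ea-ps at 12.5 FPKM or more also have the highest H2-DMb1.

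Of the 29 nonclassical class I genes 10 entered the test, with medians over the 12 mice between 0.574 and 6.97 FPKM. H2-T23 encodes Qa-1, the ligand of the CD94/NKG2A receptor of natural killer cells, and had 4.67, 7.17 and 16.3 FPKM (lowest, median and highest) in responders, against 5.02, 6.64 and 22.5 FPKM in non-responders. H2-M3, which presents peptides that start with N-formyl methionine, had 3.18, 4.49 and 9.34 FPKM in responders, against 3.17, 3.58 and 3.75 FPKM in non-responders. H2-T22, a ligand of some gamma delta T cells, had 4.39, 6.97 and 11.8 FPKM in responders, against 4.52, 6.72 and 9.24 FPKM in non-responders. All 3 genes overlapped between the groups. The highest H2-T23 value belonged to non-responder 4 and the highest H2-M3 and H2-T22 values to responder 1, and H2-M3 stayed within a narrow band in non-responders. None of the 3 passed: the log2 fold change was 0.36 ± 0.18 (SE, adjusted p = 0.688 in limma) for H2-M3 and 0.11 ± 0.22 (SE, adjusted p = 0.917) for H2-T22. For H2-T23 it was 0.0046 ± 0.37 (SE, adjusted p = 0.997), with a sign that turned under TPM and median ratio scaling.

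H2-Q1 differed most in this class. It had 0.587, 1.05 and 1.44 FPKM (lowest, median and highest) in responders, against 0.952, 1.83 and 4.29 FPKM in non-responders, with means of 1.02 ± 0.306 and 2.22 ± 1.2 FPKM (SD, n = 6 each). Non-responder 1 lay within the responder range, and the other 5 non-responders lay above all responders. The log2 fold change was -0.61 ± 0.22 (SE, unadjusted p = 0.0165 and adjusted p = 0.600 in limma), so the difference did not pass. H2-Q1 shares stretches of at least 90% identity with 10 other members.

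H2-Q4 had 3.23, 9.68 and 17.8 FPKM (lowest, median and highest) in responders, against 4.42, 5.70 and 18.3 FPKM in non-responders, and its log2 fold change was 0.38 ± 0.39 (SE, adjusted p = 0.833). H2-T24 had 0.724, 1.82 and 3.59 FPKM in responders, against 0.783, 1.81 and 15.3 FPKM in non-responders, where non-responder 4 was highest. Its log2 fold change of -0.42 (adjusted p = 0.850) became 0.0063 without non-responder 4. That mouse was also highest in H2-Q4 among non-responders, and its neutrophil, B cell and macrophage marker sums were the highest of the 12, but the part of those cells in these values was not tested.

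Lower members of the class followed the same pattern of wide overlap. H2-Q6, which with H2-Q7 encodes the Qa-2 antigen, had 0.548, 1.73 and 3.60 FPKM (lowest, median and highest) in responders, against 0.566, 0.976 and 2.78 FPKM in non-responders. H2-T10, a close relative of H2-T22 at 96.4% identity over 1703 bases, had 0.729, 2.32 and 5.11 FPKM in responders, against 0.684, 1.86 and 4.46 FPKM in non-responders. The pseudogene H2-T-ps had 0.845, 1.81 and 3.64 FPKM in responders, against 0.546, 1.69 and 3.23 FPKM in non-responders. The groups overlapped for all 3, with adjusted p values in limma of 0.888 for H2-Q6, 0.948 for H2-T10 and 0.859 for H2-T-ps.

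By the median over the 12 mice, H2-Eb1 and H2-Ab1, the beta chains of I-E and I-A, were the highest classical class II genes. H2-Ea-ps, described below, was at 11.5 FPKM or more in 5 mice. In non-responder 3 its 31.3 FPKM lay above both H2-Eb1 (30.2 FPKM) and H2-Ab1 (23.1 FPKM). H2-Eb1 had 14.4, 30.8 and 65.4 FPKM (lowest, median and highest) in responders, against 16.8, 23.5 and 48.9 FPKM in non-responders. H2-Ab1 had 15.1, 32.7 and 42.4 FPKM in responders, against 12.6, 22.5 and 36.4 FPKM in non-responders. The groups overlapped for both genes, and the non-responder high was non-responder 4 in each. The log2 fold changes were 0.33 ± 0.36 (SE, adjusted p = 0.845) for H2-Eb1 and 0.32 ± 0.30 (SE, adjusted p = 0.808) for H2-Ab1. Over 25 alternatives they ran from 0.12 to 0.57 for H2-Eb1 and from 0.17 to 0.52 for H2-Ab1.

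H2-Aa, the alpha chain that pairs with H2-Ab1, was listed far below it in every mouse. It had 0.109, 0.273 and 1.73 FPKM (lowest, median and highest) in responders, against 0.0466, 0.238 and 0.502 FPKM in non-responders. The ratio of H2-Ab1 to H2-Aa was 21.3 to 216 with a median of 113 in responders, and 44.8 to 271 with a median of 93.7 in non-responders. No mouse had H2-Aa within 20-fold of H2-Ab1. Why a chain of the same dimer was listed so low was not tested. H2-Aa and H2-Ab1 had a Pearson r of 0.57 and a Spearman rho of 0.66 over 12 mice (permutation p = 0.0425 and 0.0223, adjusted p = 0.113 and 0.0595 over 8 relations). That relation held r = 0.47 within responders (n = 6, exact permutation p = 0.392) and 0.79 within non-responders (n = 6, exact permutation p = 0.0514), and 0.63 without the 2 mice farthest from the median of H2-Aa (permutation p = 0.0530).

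The start regions of H2-Aa and H2-Eb1 both hold the Y box CTGATTGG, a site of the factor NF-Y in class II promoters, which is shown in capitals in the 150 bases before each RefSeq start. They are shown because H2-Eb1 was among the highest members and H2-Aa among the low ones. H2-Aa lies at chr17:34287824-34287973 (-) and H2-Eb1 at chr17:34305717-34305866 (+), where an exon of the antisense gene Gm20513 overlaps.
H2-Aa: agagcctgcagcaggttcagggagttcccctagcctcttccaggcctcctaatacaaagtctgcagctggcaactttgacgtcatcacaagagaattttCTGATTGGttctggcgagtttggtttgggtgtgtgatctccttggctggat
H2-Eb1: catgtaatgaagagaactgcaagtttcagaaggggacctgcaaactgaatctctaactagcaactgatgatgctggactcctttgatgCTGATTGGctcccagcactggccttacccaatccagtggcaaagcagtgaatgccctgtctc
CTGATTGG on either strand was present in 1254 of 32817 windows (3.82%) and in 18 of the 35 windows of members, among them windows of H2-D1, H2-Q6, H2-Q7 and H2-T23, so it was not restricted to class II. It starts 51 bases before the start of H2-Aa and 62 bases before that of H2-Eb1. In H2-D1, H2-Q6 and H2-Q7 it did not overlap the motifs described above.

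H2-Ea-ps (ENSMUSG00000036322, chr17:34341959-34344645) encodes the I-E alpha chain, the partner of H2-Eb1. It is annotated as a polymorphic pseudogene: the C57BL/6 allele of the reference genome is not transcribed, and other haplotypes express it. The 6 responders had 0.0842, 0.109, 0.462, 11.5, 0 and 0.765 FPKM, in the order of their numbers. The 6 non-responders had 12.5, 0, 31.3, 0, 13.1 and 20.3 FPKM. Values thus fell apart into 5 mice at 11.5 FPKM or more, which were responder 4 and non-responders 1, 3, 5 and 6, and 7 mice under 1 FPKM. Both groups held mice of either kind. The log2 fold change was -1.95 ± 0.81 (SE, unadjusted p = 0.0336 and adjusted p = 0.640 in limma), so the difference did not pass. By sex, 4 of the 5 mice were female, and the log2 fold change, female over male, was 2.08 ± 0.81 (SE, unadjusted p = 0.0254, adjusted p = 0.864). All 3 female non-responders were among the 5.

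**Figure D3:**
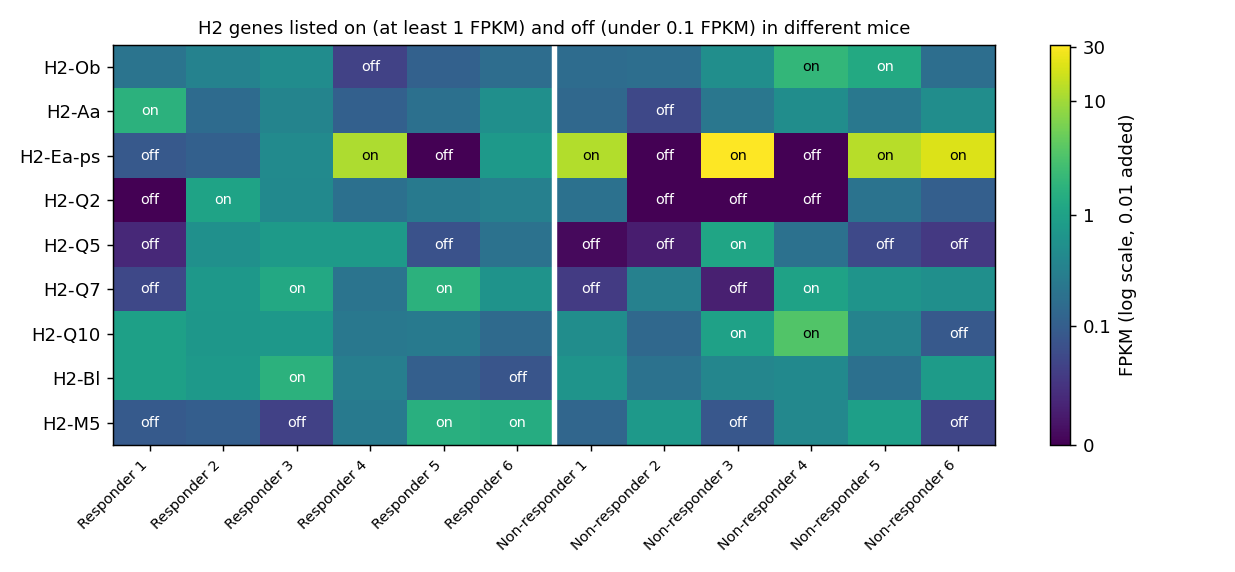
FPKM (colour, log scale) of the 9 H2 genes that were on (at least 1 FPKM) in some mice and off (under 0.1 FPKM) in others, with responders left of the white line and non-responders right of it. H2-Ea-ps was on in 5 mice and off in 4, and the other genes were on in 1 to 3 mice.

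An on-off listing was more frequent among members than across the table. Of the 27 members with at least 1 mouse at 1 FPKM or more, 9 also had a mouse under 0.1 FPKM (33.3%), against 1720 of 16446 such genes in the table (10.5%). For protein-coding genes it was 6 of 21 members (28.6%), against 1161 of 14039 genes (8.27%). Among the 93 other expressed genes between the outermost members it was 7 (7.53%). These are descriptions with no test. The difference depended on the limit for off. With off taken only at 0 it was 2 of 27 members (7.41%), H2-Ea-ps and H2-Q2, against 945 of 16446 genes (5.75%). H2-Q10 and H2-Q5 match H2-Q7 at 94.7% identity over 1499 bases and 92.9% over 1189 bases. H2-Q2 matches H2-Q1 at 93.2% over 1168 bases, and H2-Bl matches H2-D1 at 90.3% over 998 bases. Fragments could have been divided between these genes, and the part of this in the on-off listings was not tested. The search of transcripts found no match for H2-Aa, H2-Ea-ps, H2-Ob or H2-M5.

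The highest value of the other on-off members was 3.52 FPKM, for H2-Q10. H2-Q7 (Qa-2) had 0.0472, 0.720, 1.28, 0.210, 1.78 and 0.610 FPKM in responders 1 to 6, against 0.0306, 0.331, 0.0103, 1.01, 0.632 and 0.538 FPKM in non-responders 1 to 6. It was off in responder 1 and in non-responders 1 and 3. Its partner in the same antigen, H2-Q6, was also among its lowest values in those mice, at 0.575 FPKM in responder 1, against 0.650 and 0.566 FPKM in non-responders 1 and 3. H2-Q6 and H2-Q7 match at 94.0% identity over 1039 bases. The log2 fold change of H2-Q7 was 0.28 ± 0.26 (SE, adjusted p = 0.808 in limma).

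H2-M5 had 0.0890, 0.10, 0.0372, 0.269, 1.59 and 1.45 FPKM in responders 1 to 6, against 0.134, 0.759, 0.0778, 0.419, 0.921 and 0.0442 FPKM in non-responders 1 to 6, so that it was on only in responders 5 and 6 of the 12 mice. H2-Q2 had 0, 1.07, 0.442, 0.183, 0.264 and 0.324 FPKM in responders, against 0.192, 0, 0, 0, 0.202 and 0.106 FPKM in non-responders, and was on in responder 2. The exact permutation test of its mean log2 values gave p = 0.0541 (2-sided, n = 6 each, not adjusted). The pseudogene H2-Q5 had 0.0150, 0.555, 0.792, 0.799, 0.0658 and 0.197 FPKM in responders, against 0.0022, 0.00915, 1.12, 0.194, 0.0494 and 0.0280 FPKM in non-responders, and was on in non-responder 3.

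H2-Q10 encodes a secreted class I molecule made mainly by the liver. It had 0.963, 0.693, 0.710, 0.242, 0.264 and 0.154 FPKM in responders 1 to 6, against 0.513, 0.140, 1.00, 3.52, 0.352 and 0.0845 FPKM in non-responders 1 to 6, and was highest in non-responder 4. H2-Bl had 0.946, 0.735, 1.77, 0.301, 0.103 and 0.0733 FPKM in responders, against 0.625, 0.200, 0.396, 0.451, 0.185 and 0.807 FPKM in non-responders, and was on in responder 3. H2-Aa was on in responder 1 and off in non-responder 2.

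The first number of each mouse's description was shared by some mice, and its meaning was not stated in the sources used here. It lies between 44 and 49 for responders and between 68 and 83 for non-responders, so that no number holds both groups, and the number and the response cannot be told apart. In the 6 pairs with the same number, 0 or 1 of the 9 on-off members were on in 1 mouse and off in the other. The median over these 6 pairs was 0.5. The pairs with different numbers differed in 0 to 2 members within a group (24 pairs) and in 0 to 4 members between groups (36 pairs), with a median of 1 in each. Sharing a number did not fix H2-Ea-ps: responders 3 and 4 share 49 and had 0.462 and 11.5 FPKM, and non-responders 2, 4 and 5 share 82 and had 0, 0 and 13.1 FPKM.

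Nonclassical class II genes encode DM, which loads peptides onto class II molecules, and DO, which restrains DM. H2-DMa (chr17:34119541-34139101), the alpha chain of DM, had 11.4, 13.6 and 16.8 FPKM (lowest, median and highest) in responders, against 13.1, 17.6 and 21.7 FPKM in non-responders. The groups overlapped between 13.1 and 16.8 FPKM, and the means were 13.8 ± 1.97 and 17 ± 3.35 FPKM (SD, n = 6 each). The log2 fold change was -0.27 ± 0.11 (SE, unadjusted p = 0.0305 and adjusted p = 0.640 in limma). H2-DMa overlaps Brd2 on the opposite strand, a gene with a median of 37.8 FPKM, and the sources used here do not say whether the deposited values used strand.

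H2-DMb1 (ENSMUSG00000079547, chr17:34153072-34160230), a beta chain of DM, differed most of the 20 members by p. The 6 responders had 3.17, 2.6, 4.13, 2.97, 2.70 and 3.70 FPKM, in the order of their numbers. The 6 non-responders had 11.3, 1.89, 10.9, 4.69, 8.60 and 16.9 FPKM. All responders lay in a narrow range, 5 of 6 non-responders lay above it and non-responder 2 lay below it. The means were 3.21 ± 0.596 and 9.05 ± 5.31 FPKM (SD, n = 6 each), with a log2 fold change of -1.05 ± 0.31 (SE, unadjusted p = 0.00652). The adjusted p was 0.508 in limma, so the difference did not pass. Over 25 alternatives the log2 fold change ran from -1.32 to -0.89 and the adjusted p from 0.0943 to 0.789.

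H2-DMb2, the neighbouring beta chain gene, had a log2 fold change of the other sign, 0.19 ± 0.25 (SE, adjusted p = 0.868 in limma), with 0.989, 2.31 and 3.42 FPKM (lowest, median and highest) in responders, against 0.764, 1.42 and 4.87 FPKM in non-responders. The 2 genes match at 95.7% identity over 1081 bases, so fragments could have been divided between them. Their sum was 3.96, 5.24 and 7.55 FPKM (lowest, median and highest) in responders, against 3.40, 11.5 and 17.7 FPKM in non-responders, and the ratio of H2-DMb1 to H2-DMb2 was 1.12, 1.39 and 3.01 in responders, against 0.962, 6.19 and 22.1 in non-responders. The highest ratios were those of non-responders 6, 1 and 3, all female. The DO chains were low: H2-Ob, the beta chain, reached 2.06 FPKM in non-responder 4 and 1.33 FPKM in non-responder 5, stayed at or under 0.529 FPKM in the other 10 mice and was off in responder 4 (0.0385 FPKM). H2-Oa, the alpha chain, stayed at or under 0.557 FPKM in all 12.

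Among the members outside both classes, H2-Ke6 (also Hsd17b8) encodes an enzyme of steroid and fatty acid metabolism and no presenting molecule. It had 3.52, 5.42 and 6.08 FPKM (lowest, median and highest) in responders, against 5.21, 7.36 and 10.8 FPKM in non-responders. Only non-responder 6 lay within the responder range, and the means were 5.17 ± 0.953 and 7.67 ± 2.03 FPKM (SD, n = 6 each). The log2 fold change was -0.47 ± 0.16 (SE, unadjusted p = 0.0119 and adjusted p = 0.581 in limma). The pseudogene H2-K2 had 0.188, 1.33 and 4.27 FPKM in responders, against 0.497, 0.586 and 2.56 FPKM in non-responders, with an adjusted p of 0.807. H2-Pa and H2-Pb were listed at or near 0.

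In the test of response with sex as a covariate, 0 of 20 members passed an adjusted p of 0.05, against 3 of 14203 genes tested (0.0211%; limma on log2(FPKM + 1), Benjamini-Hochberg over all genes). At an unadjusted p under 0.05 there were 5 members (25%), all lower in responders: H2-DMb1, H2-Ke6, H2-Q1, H2-DMa and H2-Ea-ps. The share of all genes at that level was 7.4%, and 4.17% when only lower genes were counted. H2-Ke6, H2-DMa, H2-DMb1 and H2-Ea-ps lie close together at chr17:34026033-34344645. These members need not vary independently of each other, and their dependence was not tested. Of the 20 log2 fold changes, 14 were positive and 6 negative, with a median of 0.21, against 0.0034 over all genes tested. The groups did not overlap for 0 of 20 members, against 78 of 14203 genes (0.549%). Without responder 1 and non-responder 4, the libraries that stood apart, the same 5 members were under 0.05 and 0 passed. In every alternative H2-DMb1, H2-Ke6 and H2-Q1 were under 0.05. Neither H2-DMa nor H2-Ea-ps was under 0.05 with no sex covariate, on the TPM scale, or without responder 3, non-responder 5 or non-responder 6. H2-DMa was also not under 0.05 with mice averaged by description number, or without responder 1, responder 4 or non-responder 1. Nor was H2-Ea-ps with a pseudocount of 0.1, with the replicate block, or without responder 5 or non-responder 3. The sums of 4 lists of markers of other cells overlapped between the groups, and some of their markers had an unadjusted p under 0.05. The 4 Schwann cell markers summed to 2200 to 4215 FPKM in responders, against 4058 to 6035 FPKM in non-responders, and 3 of them were lower in responders at an unadjusted p under 0.05. So were 3 of 5 fibroblast markers, which summed to 121 to 210 FPKM in responders, against 126 to 562 FPKM in non-responders, and 2 of 5 satellite glia markers, which summed to 245 to 397 FPKM in responders, against 343 to 590 FPKM in non-responders. Of 5 pituitary hormone genes, 4 were higher in responders at that level, and their sum was 358 to 77394 FPKM in responders, against 26.7 to 1053 FPKM in non-responders. None of the markers of these 4 lists passed an adjusted p of 0.05 in limma. The 12 macrophage and microglia markers summed to 52.3 to 116 FPKM in responders, against 46.2 to 221 FPKM in non-responders, and the 6 B cell markers to 8.01 to 58.7 FPKM in responders, against 6.60 to 157 FPKM in non-responders. No marker of the macrophage or B cell lists was under 0.1 FPKM in all mice, and of the 6 T cell markers Cd3g was. Their part in the values of the members was not tested.

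**Figure D4:**
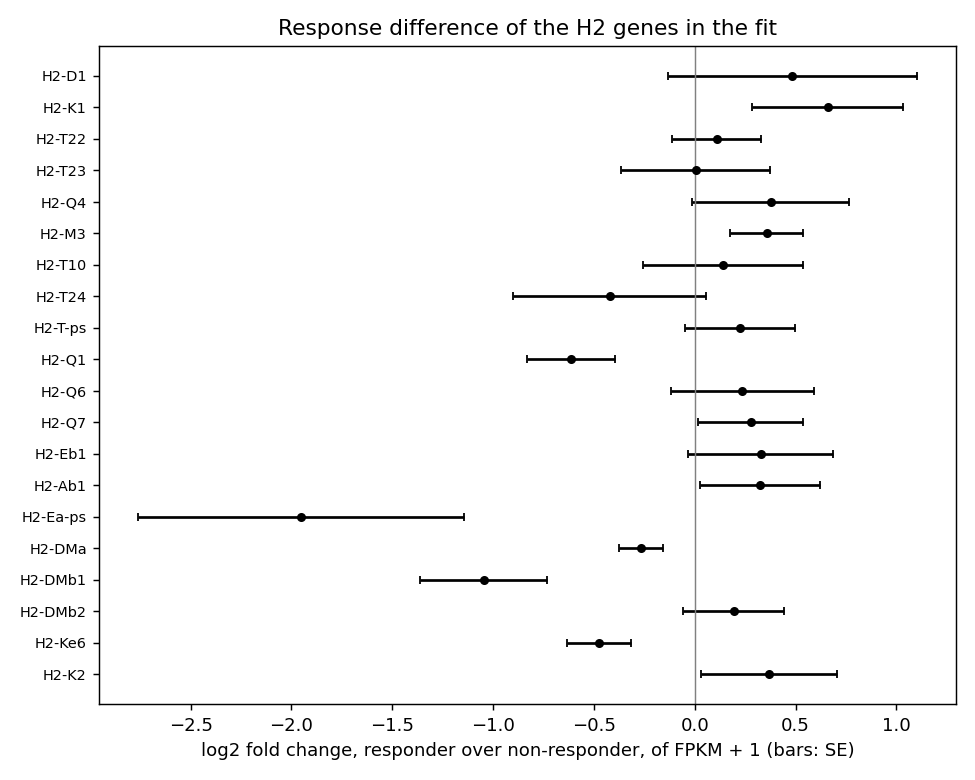
Log2 fold change of FPKM + 1, responder over non-responder, of the 20 H2 genes in the test (points) with its SE (bars), with class I above class II. The lowest values are those of H2-Ea-ps (-1.95) and H2-DMb1 (-1.05), and none passed an adjusted p of 0.05.

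Within females 0 of 20 members passed, against 1 of 14203 genes (0.00704%), and within males 0 of 20 passed, against 2 of 14203 (0.0141%). At an unadjusted p under 0.05, females had 4 members (H2-DMb1, H2-Ea-ps and H2-Q1 lower and H2-Q7 higher in responders; 6.81% of all genes) and males had 1 (H2-Ke6, lower; 6.78% of all genes). H2-DMb1 had 3.27 ± 0.760 FPKM in female responders and 13.1 ± 3.34 FPKM in female non-responders (SD, n = 3 each), with a log2 fold change of -1.71 ± 0.36 (SE, adjusted p = 0.504 in limma). In males it had 3.16 ± 0.547 FPKM in responders and 5.06 ± 3.37 FPKM in non-responders (SD, n = 3 each), with a log2 fold change of -0.39 ± 0.36 (SE, adjusted p = 0.830 in limma). The test of that difference between the sexes gave -1.32 ± 0.51 (SE, unadjusted p = 0.0275, adjusted p = 0.836), and 0 of 20 members passed it, against 0 of 14203 genes (0.0%), with 1 member and 5.01% of all genes under an unadjusted 0.05.

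Between the sexes 0 of 20 members passed, against 8 of 14203 genes (0.0563%; limma). At an unadjusted p under 0.05 there were 3, all higher in females (4.53% of all genes in either direction and 2.01% higher): H2-DMa, H2-DMb1 and H2-Ea-ps. H2-DMa had 17.1 ± 2.89 FPKM in females and 13.7 ± 2.44 FPKM in males (SD, n = 6 each), with a log2 fold change, female over male, of 0.30 ± 0.11 (SE, adjusted p = 0.864).

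The members varied widely from mouse to mouse. The SD of log2(FPKM + 1) over 12 mice had a median of 0.63 over the 20 members, against 0.26 over the 14203 genes tested. It lay above the 90th percentile of all genes (0.64) in 9 of 20 members: H2-Ea-ps, H2-D1, H2-T24, H2-DMb1, H2-K1, H2-Q4, H2-T10, H2-Eb1 and H2-T23. H2-Ea-ps lay at the 99.7th percentile and H2-D1 at the 97.7th, and H2-DMa was lowest at the 52.1st. Within groups the median SD was 0.64 for members, against 0.25 for all genes. The members were not matched to genes of like level. The part that fragments divided between members of like sequence had in this spread was not tested.

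Genes that serve antigen presentation were compared in the same test. Of 15 class I partners, 14 entered and 0 passed or had an unadjusted p under 0.05. Their median log2 fold change was 0.11. B2m, beta 2 microglobulin, had 193 ± 71.3 FPKM in responders and 173 ± 58.9 FPKM in non-responders (SD, n = 6 each, adjusted p = 0.910 in limma). Tap1, a subunit of the peptide transporter, had 2.34 ± 1.07 FPKM in responders and 2.35 ± 1.13 FPKM in non-responders (SD, n = 6 each, adjusted p = 0.994 in limma). Nlrc5, the activator of class I genes, had 0.425 to 1.88 FPKM in responders and 0.548 to 1.24 FPKM in non-responders and did not enter the test. Tap2 (adjusted p = 0.788), Psmb8 (0.737) and Pdia3 (0.745), which had the smallest unadjusted p of the list, had positive log2 fold changes of 0.25, 0.40 and 0.23.

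Of 11 class II partners, 7 entered and 0 passed. Cd74, the invariant chain that guides class II molecules, had 24.5 ± 9.38 FPKM in responders and 14.6 ± 5.10 FPKM in non-responders (SD, n = 6 each), with a log2 fold change of 0.68 ± 0.30 (SE, unadjusted p = 0.0411, adjusted p = 0.646 in limma). Rfxap, a subunit of the class II promoter factor RFX, had 8.47 ± 1.46 FPKM in responders and 10.2 ± 0.817 FPKM in non-responders (SD, n = 6 each), with a log2 fold change of -0.26 (unadjusted p = 0.0490, adjusted p = 0.670). Rfxank, another subunit of RFX, had a log2 fold change of 0.30 (adjusted p = 0.766). Ciita, the class II activator, had 0.365 to 1.12 FPKM in responders and 0.508 to 1.15 FPKM in non-responders and did not enter. Of 15 interferon genes, 14 entered and 0 passed in limma, with 1 at an unadjusted p under 0.05. The median log2 fold change of the 14 was 0.017, against 0.0034 over all genes tested.

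H2-Ab1 moved with Cd74 from mouse to mouse. Over 12 mice log2(FPKM + 1) of the 2 genes had a Pearson r of 0.92 (permutation p = 6e-05, adjusted p = 0.00048 over 8 relations) and a Spearman rho of 0.90 (permutation p = 0.00021, adjusted p = 0.00168). Within responders r was 0.93 (n = 6, exact permutation p = 0.0167, adjusted p = 0.0556), and within non-responders it was 0.97 (n = 6, exact permutation p = 0.00833, adjusted p = 0.05). Without responder 3 and non-responder 2, the mice farthest from the median of H2-Ab1, r was 0.86 (permutation p = 0.00168, adjusted p = 0.0134).

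H2-Ab1 and Csf1r, a receptor of macrophages and microglia, had an r of 0.65 over 12 mice (permutation p = 0.0219, adjusted p = 0.0877) and a rho of 0.66 (adjusted p = 0.0595). Within responders r was 0.96 (n = 6, exact permutation p = 0.00139, adjusted p = 0.0111), and within non-responders it was 0.89 (n = 6, exact permutation p = 0.0125, adjusted p = 0.05). Without the 2 mice farthest from the median r was 0.56 (permutation p = 0.0911). Csf1r had 5.83 ± 1.17 FPKM in responders and 7.30 ± 2.52 FPKM in non-responders (SD, n = 6 each), and the groups overlapped. The relations of H2-Ab1 with Ptprc, H2-K1 with B2m and H2-D1 with Tap1 had an r of 0.42, 0.40 and 0.018, and none passed (adjusted p from 0.282 to 0.956).

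**Figure D5:**
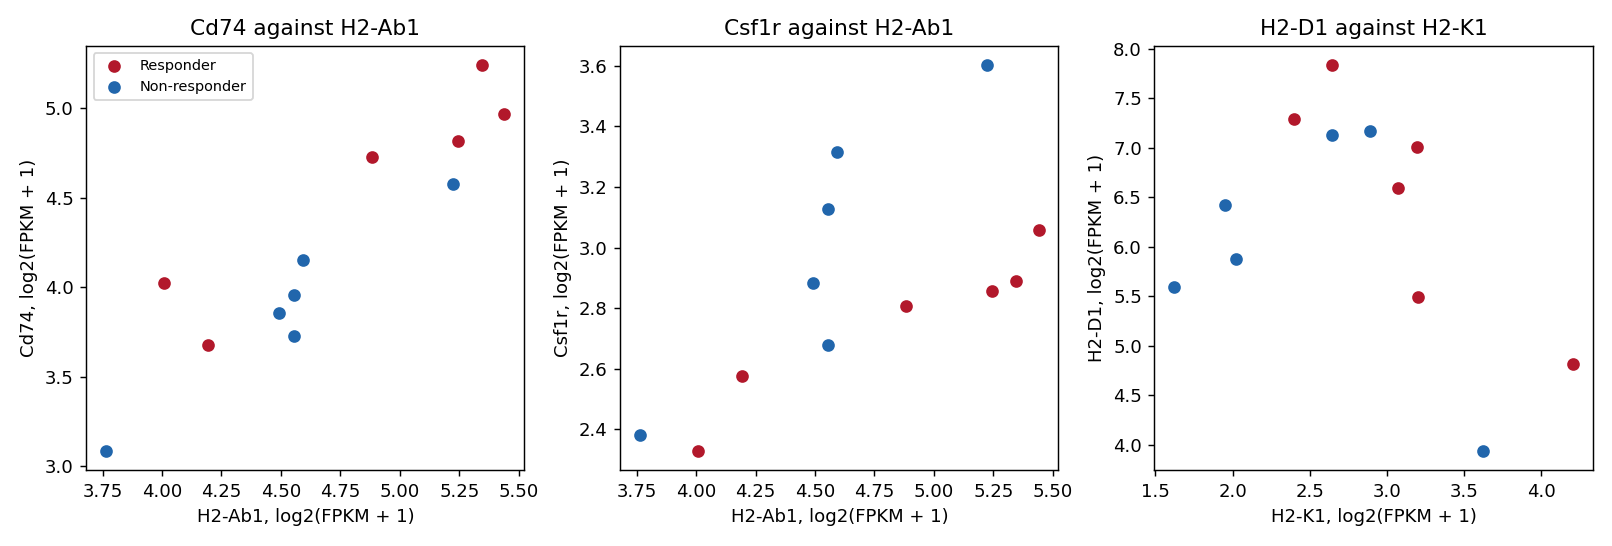
Log2(FPKM + 1) of Cd74 against H2-Ab1, of Csf1r against H2-Ab1 and of H2-D1 against H2-K1, with 1 point per mouse (responders red, non-responders blue). Cd74 rises with H2-Ab1 over the 12 mice (r = 0.92), Csf1r rises with it within each group, and H2-D1 is lowest where H2-K1 is highest.

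The remaining 25 members were low or listed at 0. Of these, 7 reached 1 FPKM in 1 or 2 mice and are described above. The other 18 never reached 1 FPKM, and 7 of them were listed at 0 in all 12 mice. A listed 0 need not mean absence: Cd68, a gene of macrophages, was also listed at 0 in 2 mice (responder 1 and non-responder 2). The 7 at 0 were H2-M1, H2-M10.1, H2-M10.4, H2-M10.5, H2-M10.6, H2-M10.5-ps1 and H2-Pb. The H2-M1 and H2-M10 genes are known from sensory neurons of the vomeronasal organ. The highest value among the 18 was 0.805 FPKM, for H2-M2 in responder 3. H2-T3, which encodes the thymus leukaemia antigen, reached 0.585 FPKM in responder 1. Of 15 members below the filter that were above 0 in at least 3 mice, 1 had a 2-sided exact permutation p under 0.05 (not adjusted), against 756 of 15425 such genes in the table (4.9%). It was H2-M11, at 0 in all 6 responders and at 0 to 0.10 FPKM in non-responders (exact permutation p = 0.0152). With 7 mice at 0 this is the smallest p that its values could give, above the 0.00216 possible without ties.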

How the data were processed

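RNA sequencing values of 12 trigeminal ganglion libraries were used, 6 from responders and 6 from non-responders. The authors deposited 1 table of FPKM values per Ensembl gene and mouse; the unit was inferred from its values. The submitters' processing notes list StringTie 1.3.5 and STAR 2.6.0a, with the builds mm10 and GRCm38. The sources used here give no annotation release, settings or use of strand. No counts were used, so depth in reads is unknown and no interval that needs it is given. An exact 0 can be a failed estimate and is given only as a listing.

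Symbols and coordinates came from GENCODE M21, which matched 51076 of 51341 identifiers and left 265 unmatched. Members and lists were chosen with earlier results of these data known. The text names every member in the test and every on-off member, the other members by class, and of the partner genes B2m, Cd74, Nlrc5, Ciita, Tap1 and those with the smallest p; H2-M2, H2-T3, H2-Oa, H2-M11, H2-Pa and the members at 0 were named after their values were seen.

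log2(FPKM + 1) was tested over the 14203 genes that reached 1 FPKM in 3 or more mice, with limma 3.58.1 under R 4.3.3 (moderated by eBayes with no trend; sex as covariate; 9 residual degrees of freedom), and p values were adjusted by Benjamini-Hochberg over all of them (threshold 0.05, 2-sided). The added 1 shrinks fold changes of low genes. Contrasts within sex came from 4 cell means. Members below the filter were compared by exact permutation over 924 splits, and 8 relations were tested with 100000 permutations, or exactly within groups, as 2-sided tests. A gene was on at 1 FPKM or more and off under 0.1 FPKM. Transcripts were searched by blastn 2.17.0 for stretches of 200 bases or more at 90% identity or more. Some relations and gene values are not reported here. The limma procedure was tested on simulated data. Each library came from its own mouse. Mice that share a replicate number in the titles did not deviate together, so the numbers were not used as pairs. Alternatives changed the pseudocount, filter, scaling, variance model, weights, covariates and mice.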

Additional observations from a re-analysis of the deposited data

Results flagged for a closer look

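Of 74 groups of 6 values checked (37 genes in both groups), 14 held a mouse farther from the nearest of the others than Dixon's limit for 6 values allows. That limit flags about 1 in 20 groups by chance only for independent groups of normally distributed values. FPKM were used here without logarithm, and the genes of a mouse are not independent, so the count of 14 cannot be set against that share. Non-responder 4 gave 7 of these and responder 1 gave 4.

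In non-responder 4, H2-T23 was 22.5 FPKM (other non-responders 5.02 to 9.33), H2-Q4 was 18.3 FPKM (4.42 to 7.13), H2-T24 was 15.3 FPKM (0.783 to 3.99), H2-DMb2 was 4.87 FPKM (0.764 to 2.20), H2-Q10 was 3.52 FPKM (0.0845 to 1.00), Tap1 was 4.53 FPKM (1.29 to 2.38) and Ciita was 1.15 FPKM (0.508 to 0.738). In this mouse the summed neutrophil markers were 4142 FPKM and the summed B cell markers 157 FPKM. In responder 1, H2-K1 was 17.4 FPKM (other responders 4.27 to 8.19), H2-M3 was 9.34 FPKM (3.18 to 4.89), Nlrc5 was 1.88 FPKM (0.425 to 0.729) and H2-Aa was 1.73 FPKM (0.109 to 0.538). In this mouse the summed pituitary genes were 77394 FPKM and the summed sensory neuron markers, at 901 FPKM, were the lowest of the 12. The part of these cells in the values was not tested.

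The remaining mice far from their group were responder 4 for H2-Ea-ps (11.5 FPKM, others 0 to 0.765), non-responder 3 for H2-Q5 (1.12 FPKM, others 0.0022 to 0.194) and responder 3 for Rfxap (5.68 FPKM, others 8.48 to 9.98).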

How the results depend on the processing

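The count of members called stayed at 0 under all 81 alternative fits of the 5 contrasts, with a lowest adjusted p of 0.0769, and the count of members with an unadjusted p under 0.05 for response ran from 3 to 8. Over the 28 genes followed, 669 of 695 response values kept their direction and 26 reversed, and 22 genes never reversed. Alternatives that changed only the filter, the variance model or the covariates left each log2 fold change as it was. Their agreement in direction was fixed in advance and is no sign of stability. With the replicate block and sex, 0 members were called, and the block moved the count over all genes to 1, against 3 without it. Deviations from the group means correlated between -0.27 and 0.13 for mice with the same replicate number. For responders and non-responders with different replicate numbers the range was -0.23 to 0.31. What the replicate numbers stand for cannot be settled by this check. The log2 fold change of H2-T23 (0.0046) became -0.00355 on the TPM scale, -0.0049 with median ratio scaling and -0.010 with array weights. That of H2-T10 became -0.065 with mice averaged by description number, and that of Tap1 (-0.0050) became 0.027 with quantile normalization and 0.024 leaving out responder 1 and non-responder 4. Leaving out each mouse in turn gave -0.18 to 0.29 for H2-T23, -0.70 to 0.0063 for H2-T24, -0.026 to 0.25 for H2-T22, -0.076 to 0.35 for H2-T10, -0.033 to 0.32 for B2m and -0.14 to 0.13 for Tap1; the cause was not tested. Over 25 alternatives H2-D1 ran from 0.089 to 1.04, H2-DMb2 from 0.039 to 0.41, H2-Q4 from 0.19 to 0.63, H2-Q6 from 0.051 to 0.54 and H2-T-ps from 0.017 to 0.39, all without a change of sign. On-off members numbered 2 with off only at 0, and on-off genes over all features numbered 945 with off only at 0, 3223 with on at 0.5 FPKM and 1037 leaving out responder 1 and non-responder 4 (chosen after seeing the data), where members numbered 8. H2-Q7 did not enter 5 of the alternatives. Depth in reads is unknown, 6 mice a group limit the precision, and allele-specific placement of reads was not tested.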

Other observations

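The mice with much H2-Ea-ps and those with much H2-DMb1 were largely the same, which was noticed after the values were seen and was not tested. Non-responders 1, 3, 5 and 6 had 12.5, 31.3, 13.1 and 20.3 FPKM of H2-Ea-ps and 11.3, 10.9, 8.60 and 16.9 FPKM of H2-DMb1. Responder 4 had 11.5 FPKM of H2-Ea-ps with 2.97 FPKM of H2-DMb1, in the range of the other responders. Its ratio of H2-DMb1 to H2-DMb2, 3.01, was nevertheless the highest of the responders, and the ratios of non-responders 1, 3, 5 and 6 were 8.52, 8.47, 3.92 and 22.1, against 0.962 to 1.48 in the other 7 mice. Thus the 5 mice with H2-Ea-ps at 11.5 FPKM or more were the 5 with the highest ratio.

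H2-Q7 was off in mice at both ends of H2-K1, which was noticed after the values were seen and was not tested. Responder 1 and non-responder 1, with the highest H2-K1 (17.4 and 11.3 FPKM), had 0.0472 and 0.0306 FPKM of H2-Q7. Non-responder 3, with the lowest H2-K1 of the 12 (2.08 FPKM), had the lowest H2-Q7 (0.0103 FPKM).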
